A study of Mus musculus with 2 samples.

Results

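The collagen gene family was examined in hippocampal RNA of mice fed astaxanthin, a red carotenoid of the alga Haematococcus pluvialis. A member was any gene of a RefSeq-named probe whose mouse symbol reads Col, a number, a and a number. This rule found 38 collagen genes, read by 63 probes, among 33266 genes and transcripts with a probe on the array. Of these, 34 collagen genes were measured, meaning that at least 1 of their probes stood well above background in each RNA and on each array; 23597 genes and transcripts in all met this. Where several probes of a gene passed, the brightest stands for the gene. Male C57BL/6J mice, 11 weeks old at the start, were acclimatised for 1 week and then fed for 4 weeks. The astaxanthin (ASX) group ate powdered feed into which 0.5% (w/w) of a powder holding 2% astaxanthin was mixed, and the control group ate the same feed with 0% of it and placebo powder. Hippocampal total RNA of the groups was compared on 2 arrays, each titled with 4 mice. Array 1 had the ASX RNA in the dye Cy5 against control RNA in Cy3, and the dyes were exchanged for array 2. Whether RNA was pooled over mice is not stated in the labels, so the arrays were treated as a dye swap of 1 pair of RNA samples, which is 1 replicate of the diet comparison. On that reading, an SD between the arrays or between spots is a technical SD, and no test of the diet was possible. If the arrays held RNA of different mice, the SD between arrays would also hold variation between mice.

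Collagens are triple-helical proteins of the extracellular matrix, built from chains in which glycine recurs along the helix. Fibrillar collagens such as types I and III form the tensile fibres of connective tissue. Type IV collagen forms the sheet of basement membranes. FACIT collagens decorate fibrils, and transmembrane collagens sit on the cell surface. In the brain, fibrillar collagen is found mainly in the meninges and around larger vessels. Type IV collagen surrounds all vessels, and neurons make some of the minor types, among them collagen XXV.

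Between 75.8% and 78.2% of spots stood well above background, whichever RNA and array was read. No spot was saturated. All 10 hippocampal neuron markers with a probe, of 12 listed, were measured, so the labelled tissue had its defining genes. Of the 34 collagen probes, 22 had less signal than the median over all measured genes, and the number of arrays limits the precision of every ratio.

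The interstitial fibrillar chains stood at the upper end of the family. In the main setting, Col1a1 and Col1a2 (the chains of type I collagen) and Col3a1 (that of type III) had the 3 highest mean ratios. Each was between 1.14-fold and 1.17-fold higher in the ASX RNA with loess scaling, whereas with scaling on spike-in control RNAs the mean log2 ratios were -0.04 for Col1a1, -0.00040 for Col3a1 and -0.19 for Col1a2. The main type IV chains of basement membranes, Col4a1 and Col4a2, had mean log2 ratios of 0.02 and -0.02 with loess, of -0.14 and -0.19 with median centring and of -0.34 and -0.38 with spike-in scaling. The ASX level was at least 1.2-fold above the control level on both arrays for 0 of the 34 collagen genes, as it was for 1.44% of all genes and transcripts and 0.233% of those with a gene symbol. It was at least 1.2-fold below the control level for 0 of the 34, as it was for 0.314% of all and 0.33% of those with a symbol. At 1.5-fold the count was likewise 0, against 0.0636% of all genes higher and 0.0212% lower, and 0.03% each way of those with a symbol. Since every collagen was found by its symbol, genes with a symbol are the closer background.

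Over the 34 measured genes the median log2 ratio of ASX over control was 0.0345, with 0.0345 on array 1 and 0.0042 on array 2. The median over all genes was -0.0042, and over genes with a symbol -0.02. Mean ratios of the family ran from -0.18 to 0.23 on the log2 scale, with an SD of 0.10 between genes. All 34 lay within 1.2-fold in the mean, as did 96.3% of all genes and 98.6% of those with a symbol. In all, 10 members (29.4%) were above 0 on both arrays, where 22.2% of all genes and 14.3% of those with a symbol were. Another 6 (17.6%) were below 0 on both, where 23.0% of all genes and 26.3% of those with a symbol were. Of the members on 1 side of 0 on both arrays, 62.5% were thus higher. With each array centred on its median instead of the loess curve, 7 were above and 13 below (35.0% higher). Of all genes, 20.6% were then above and 48.2% below, and their median moved to -0.10. With scaling on the spike-in control RNAs, 1 was above, Col24a1, and 22 below (4.35% higher). Of all genes, 2.12% were then above and 69.8% below, and their median moved to -0.30. These scalings differ by a constant on each array, so relative to those shifted medians, taken on each array, they give the same values. By that measure 13 were above and 4 below (76.5% higher). By the same measure 31.6% of all genes were above and 31.6% below.

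The other 18 members (52.9%) had the arrays on opposite sides of 0, as did 54.8% of all genes and 59.3% of those with a symbol. With 1 array per dye orientation, a dye effect and the error of single arrays cannot be told apart. Of the 34 measured members, 10 were brighter in Cy5 on both arrays (27.2% of all genes were) and 8 brighter in Cy3 on both (27.5% of all genes were). The median size of the diet part of the ratio over the family was 0.07, and the median size of the dye part was 0.07 as well. The mean ratio was larger than the SD between arrays for 11 of the 34 collagen genes, which is 32.4%. It was so for 35.4% of all genes and 31.4% of those with a symbol.

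**Figure D1:**
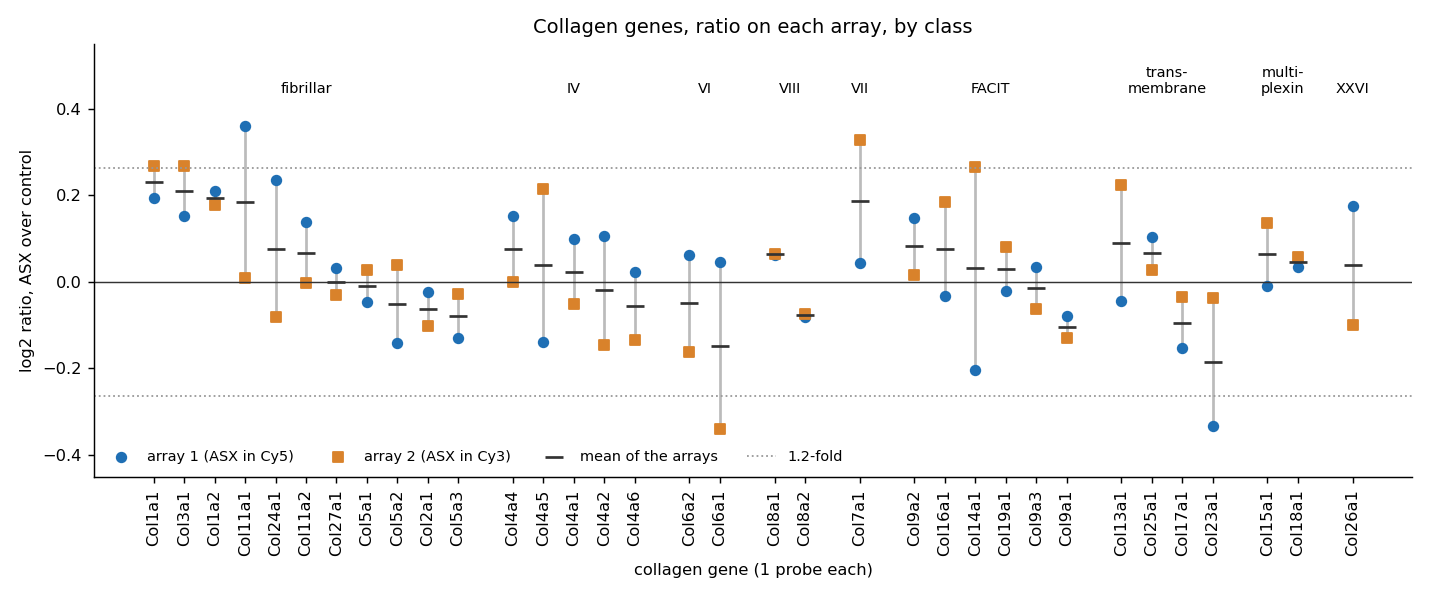
Log2 ratio of ASX over control (vertical axis) of each of the 34 measured collagen genes (horizontal axis), grouped by class; circles are array 1, squares array 2, dashes their mean, and dotted lines mark 1.2-fold. Col1a1, Col3a1 and Col1a2 lie above 0 on both arrays with similar values, whereas most type IV and VI chains have the arrays on opposite sides of 0; no gene is past a dotted line on both arrays. With median centring Col1a2 is below 0 on array 2, and with spike-in scaling the means of Col1a1, Col3a1 and Col1a2 are below 0.

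Col1a1 had a log2 intensity of 8.86 in the ASX RNA and 8.67 in the control RNA on array 1, and of 8.998 and 8.730 on array 2. The ASX RNA was the brighter on both arrays, in either dye, and both ASX values lay above both control values. The log2 ratios were 0.19 and 0.27, with a mean of 0.23 ± 0.05 (technical SD between 2 arrays), a 1.17-fold difference. This probe was printed in 10 spots. All 10 had a ratio above 0 on array 1, from 0.12 through a median of 0.19 to 0.32, and all 10 on array 2, from 0.11 through 0.27 to 0.36. The SD over spots was 0.05 on array 1 and 0.08 on array 2. Another Col1a1 probe past the brightness filter, with 1 spot, had 0.11 and 0.13. The remaining Col1a1 probe was not well above background for either RNA and had 0.15 and -0.17.

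Col1a2 had log2 intensities of 11.19 for ASX and 10.98 for control on array 1, and of 11.15 and 10.98 on array 2. Both ASX values lay above both control values. The ratios were 0.21 and 0.18, with a mean of 0.19 ± 0.02 (1.14-fold), from its single probe of 1 spot. Col3a1 had 8.01 for ASX and 7.86 for control on array 1, and 8.11 and 7.84 on array 2, again with both ASX values above both control values. Its ratios were 0.15 and 0.27, with a mean of 0.21 ± 0.08 (1.16-fold). A dimmer Col3a1 probe, not well above background for either RNA, had 0.33 and -0.19. Among all measured genes, the mean ratios of Col1a1, Col3a1 and Col1a2 stood at percentiles 96.0, 95.0 and 94.0.

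These 3 genes depended on scaling to different degrees. With median centring, Col1a1 had 0.11 and 0.19 on the arrays and Col3a1 0.14 and 0.26, while Col1a2 had 0.04 on array 1 and -0.02 on array 2. With spike-in scaling the mean ratios were -0.04 for Col1a1, -0.00040 for Col3a1 and -0.19 for Col1a2. Relative to the median of all genes, the 3 stayed above 0 in the mean under all 10 alternatives. The ranges were 0.18 to 0.29 for Col1a1, 0.16 to 0.32 for Col3a1 and 0.11 to 0.22 for Col1a2. Not all alternatives are separate checks. Median centring and spike-in scaling give the same values by this measure, and the other brightness filters do not change the ratios of these genes. Col1a2 had rank 3 of the 34 in the main setting, with loess and an offset of 50, and rank 2 with the mean over probes. It had rank 5 at an offset of 16, 4 with the scanner's log ratios and 8 on array 2 alone. With median centring or spike-in scaling it had rank 14.

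**Figure D2:**
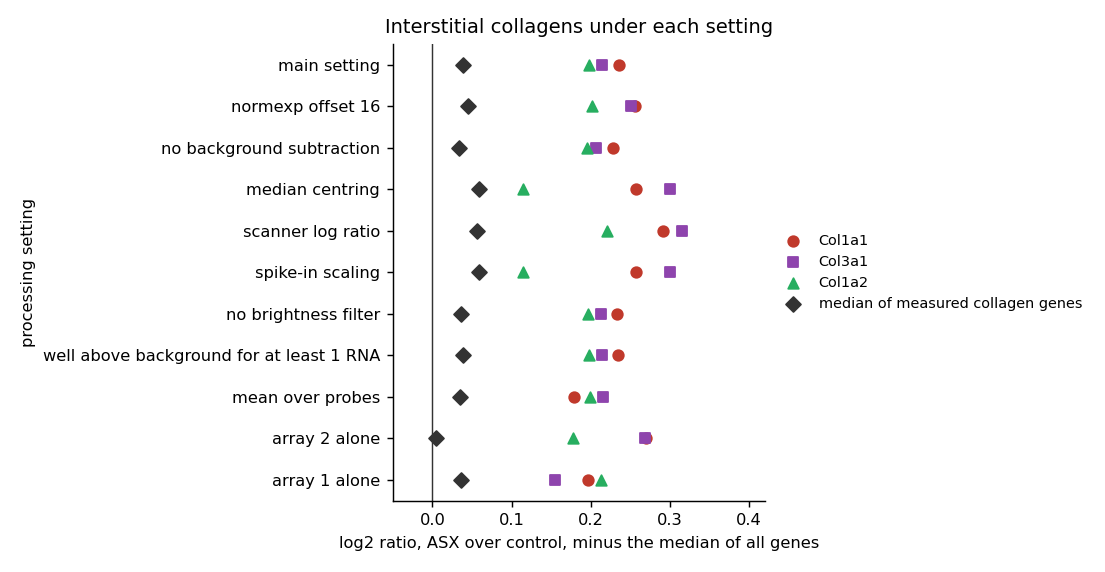
Log2 ratio of ASX over control minus the median of all genes (horizontal axis) under the main setting and 10 alternatives (vertical axis), for Col1a1 (circles), Col3a1 (squares), Col1a2 (triangles) and the median of the measured collagen genes (diamonds). The 3 genes stay at 0.11 or more and the family median lies between 0.0050 and 0.06. Median centring and spike-in scaling give the same values here by construction. Without subtracting the median of all genes, spike-in scaling puts the means of all 3 genes below 0.

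The sequences just before the start of the type I and III genes are shown because Col1a2 and Col3a1 were among the 3 highest members in the main setting. With median centring, spike-in scaling, an offset of 16, the scanner's log ratios or array 2 alone, Col1a2 was not among them. RefSeq (GRCm38.p6) gives these sequences, and the table used here has no entry for Col1a1. Each run covers the 150 bases before the start, on the plus strand, at chr6:4505468-4505617 for Col1a2 and chr1:45311388-45311537 for Col3a1. Capitals mark CCAAT, the box bound by the factor NF-Y, TATAA, a form of the TATA box, or GGGCGG, the GC box bound by Sp1, each searched on both strands.
Col1a2: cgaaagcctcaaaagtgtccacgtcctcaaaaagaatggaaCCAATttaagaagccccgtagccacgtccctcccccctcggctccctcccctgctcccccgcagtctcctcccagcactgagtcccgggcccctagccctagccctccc
Col3a1: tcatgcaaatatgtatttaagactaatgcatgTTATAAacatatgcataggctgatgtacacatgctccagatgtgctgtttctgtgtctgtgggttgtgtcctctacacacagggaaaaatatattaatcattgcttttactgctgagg
The Col1a2 stretch held 1 CCAAT, and over 250 bases before its start GGGCGG was found as well. The Col3a1 stretch held TATAA on both strands at overlapping positions, which count as 2 matches, and over 250 bases it held no other of these motifs. Over the 250 bases before the start, CCAAT was in 33.8% of all 32851 promoters in the table, TATAA in 22.8% and GGGCGG in 32.7%. Of the 38 promoters listed for 35 collagen genes, 13 held CCAAT, 7 TATAA and 22 GGGCGG. These matches describe letters and show no bound factor.

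In the main setting the other fibrillar chains had lower mean ratios than types I and III, though Col11a1 (0.184) was close to Col1a2 (0.194). Over all 11 fibrillar genes, 4 were above 0 on both arrays and 2 below, with a median of 0.07, from 0.14 on array 1 and 0.0080 on array 2. Col11a1, a minor chain that nucleates cartilage fibrils, had 0.36 on array 1 and 0.0080 on array 2, a mean of 0.18 ± 0.25 that is smaller than its SD. Another Col11a1 probe had 0.04 and 0.18. Col2a1, the main cartilage collagen, had -0.02 and -0.10. Its second probe, dimmer and printed in 10 spots, had a mean of -0.11 on array 1, where 2 of 10 spots were above 0, and 0.04 on array 2, where 7 of 10 were. The SD over these spots was 0.13 and 0.15. The chains of type V collagen, which regulates fibril width, had mean ratios of -0.01 for Col5a1, -0.05 for Col5a2 and -0.08 for Col5a3. Col11a2 and Col24a1 had means of 0.07 and 0.08 with the arrays on opposite sides of 0, and Col27a1 had 0.00090.

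**Figure D3:**
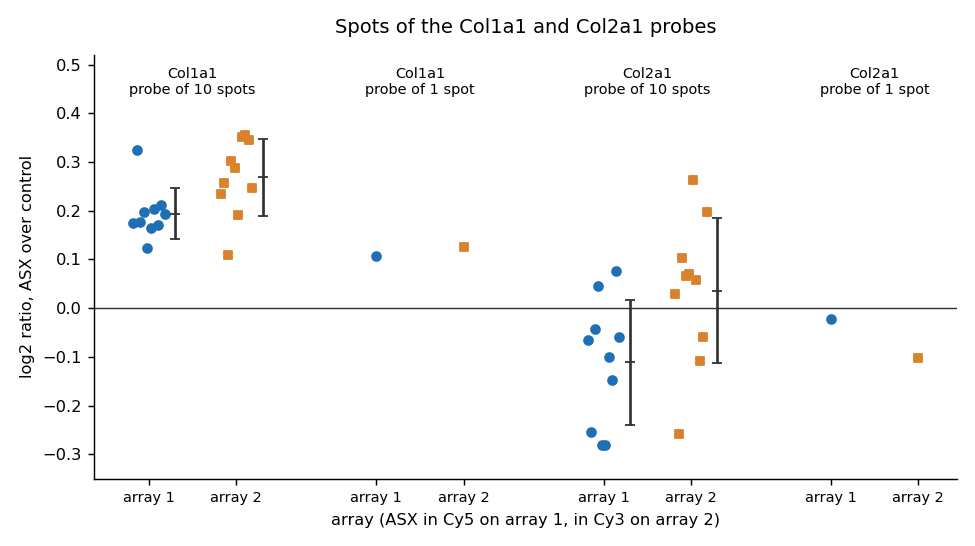
Log2 ratio of ASX over control (vertical axis) of every spot of the Col1a1 and Col2a1 probes past the brightness filter, on array 1 (circles) and array 2 (squares); bars are the mean and SD over 10 spots. All 10 Col1a1 spots lie above 0 on each array, while the Col2a1 spots lie on both sides of 0.

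Type IV collagen forms the network of vessel and meningeal basement membranes, and of its 5 measured chains 3 were brighter in Cy5 on both arrays, 1 was brighter in Cy3 and 1 was higher in the ASX RNA on both. Col4a1 and Col4a2 encode the chains of its common form. Col4a1 had log2 intensities of 10.75 for ASX and 10.65 for control on array 1, and of 10.46 and 10.51 on array 2. Col4a2 had 10.70 and 10.59 on array 1, and 10.45 and 10.60 on array 2. The groups overlapped, and in both genes the RNA in Cy5 was the brighter on each array. Ratios were 0.10 and -0.05 for Col4a1 (mean 0.02 ± 0.11) and 0.11 and -0.15 for Col4a2 (mean -0.02 ± 0.18). A second probe of each gene moved the same way, with 0.13 and -0.12 for Col4a1 and 0.17 and -0.16 for Col4a2. All 4 probes were thus above 0 on array 1 and below 0 on array 2, and means of the 4 lay between -0.02 and 0.02 with loess. With spike-in scaling Col4a2 was past 1.2-fold lower on both arrays, with a mean of -0.38, where the median of all genes was -0.30.

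The genes lie head to head on opposite strands, and RefSeq (GRCm38.p6) places their starts with 20 bases between them.

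With loess, Col4a4 had 0.15 and 0.00040, Col4a5 -0.14 and 0.22, and Col4a6 0.02 and -0.14. Over the 5 measured chains the median was 0.02, with 0.10 on array 1 and -0.05 on array 2. Only Col4a4 was above 0 on both arrays and 0 of the 5 had a mean ratio larger than its SD.

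Both measured chains of type VI collagen, a filament that links fibrils to cells, were brighter in Cy5 on both arrays. Col6a1 had log2 intensities of 9.30 for ASX and 9.25 for control on array 1, and of 8.91 and 9.25 on array 2. The ASX value of array 2 was the lowest of the 4, and the ASX value of array 1 the highest. The ratios of 0.05 and -0.34 gave a mean of -0.15 ± 0.27, which does not exceed the SD. With spike-in scaling Col6a1 was past 1.2-fold lower on both arrays, with a mean of -0.44, where the median of all genes was -0.30. Its partner chain gene Col6a2 had 0.06 and -0.16. The short-chain collagens gave the smallest spread. Col8a1 had 0.06 and 0.07 and Col8a2 -0.08 and -0.07, so that these partner chains of type VIII, a vascular and corneal network collagen, lay on opposite sides of 0 with SDs of 0.0015 and 0.0043. With median centring Col8a1 was at -0.12 and with spike-in scaling at -0.32. Another Col8a1 probe had a mean of -0.0078. Col7a1, which encodes the anchoring fibrils of skin, had 0.04 and 0.33, a mean of 0.19 ± 0.20.

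Among FACIT collagens, 1 of 6 was above 0 on both arrays and 1 below, with a median of 0.03. Col9a1, a chain of the cartilage collagen IX, had log2 intensities of 6.70 for ASX and 6.78 for control on array 1, and of 6.58 and 6.71 on array 2. Both ASX values lay below both control values, though the ASX value of array 1 and the control value of array 2 were almost equal. The mean ratio was -0.11 ± 0.04 with loess, 0.02 with median centring and -0.20 with the scanner's own log ratios. The other chain genes of type IX had means of 0.08 for Col9a2 and -0.01 for Col9a3. Col14a1 had -0.20 and 0.27, the widest split of the family. Col16a1 and Col19a1 had means of 0.08 and 0.03, each with the arrays on opposite sides of 0. Further Col19a1 probes had means of 0.15 and 0.10, both above 0 on both arrays.

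Transmembrane collagens held the lowest member. Col23a1, whose product is shed from cell surfaces, had log2 intensities of 8.52 for ASX and 8.86 for control on array 1, and of 8.54 and 8.58 on array 2. Both ASX values lay below both control values. The ratios of -0.33 and -0.04 gave a mean of -0.18 ± 0.21 (0.880-fold), and a dimmer probe had 0.02 and -0.11. Col25a1, the neuronal precursor of a component of amyloid plaques, had 7.63 for ASX and 7.52 for control on array 1, and 7.60 and 7.57 on array 2. The ASX values were the 2 highest, with ratios of 0.10 and 0.03 and a mean of 0.07 ± 0.05. Another Col25a1 probe had 0.16 and -0.07. Col17a1, of skin hemidesmosomes, had -0.15 and -0.04, and Col13a1, found at neuromuscular junctions, -0.04 and 0.22. The multiplexins of vessel basement membranes had means of 0.06 for Col15a1, with the arrays on opposite sides of 0, and 0.05 for Col18a1, the gene of the endostatin precursor, with 0.03 and 0.06; another Col18a1 probe had -0.17 and 0.11. Col26a1 had 0.18 and -0.10.

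Col4a3, Col6a6, Col10a1 and Col28a1 had no probe that stood well above background in each RNA and on each array, and were not measured. Col6a3, Col6a4, Col6a5, Col12a1, Col20a1 and Col22a1 are also in the RefSeq table, matched no probe by the rule and were not analysed here. Of the 13 genes with at least 2 probes past the filter, 7 had the same sign of the mean ratio in the 2 brightest, with a median difference of 0.08 and a largest difference of 0.14, in Col23a1. Differences of this size exceed the mean ratio of most members. Among adjacent collagen genes measured as pairs, Col3a1 had 0.21 and its neighbour Col5a2 -0.05 in the mean. Col9a1 had -0.11 and Col19a1 0.03.

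**Figure D4:**
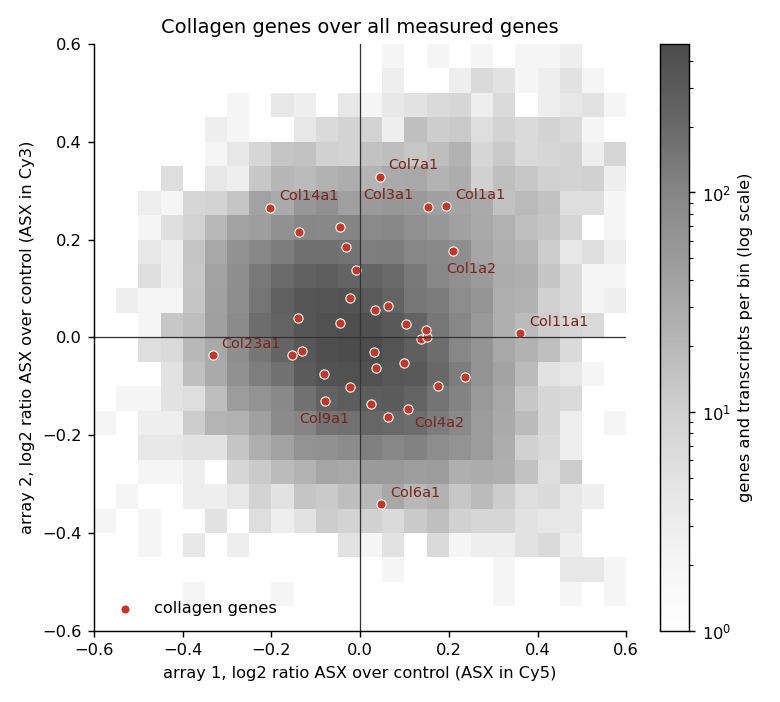
Log2 ratio of ASX over control on array 1 (horizontal axis) against array 2 (vertical axis) for the 34 measured collagen genes (red), over the number of all genes and transcripts per bin of 0.05 (grey, log scale; 179 of the 23597 lie outside the axes). Col1a1, Col3a1 and Col1a2 lie at the upper right, higher in the ASX RNA on both arrays, and Col4a2 and Col6a1 lie at the lower right, brighter in Cy5 on both arrays.

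Genes that make, cut and bind collagen gave no count past 1.2-fold in either direction. Of 34 genes of collagen biosynthesis and crosslinking, 27 were measured, 3 above 0 on both arrays (11.1%) and 6 below (22.2%), with a median of -0.01. For this and each list that follows, the shares over all genes are 22.2% above and 23.0% below, and over genes with a symbol 14.3% and 26.3%. Mia3, needed to export procollagen from the endoplasmic reticulum, had 0.21 and 0.19, and P3h3, a prolyl 3-hydroxylase gene, had 0.04 and 0.17. P3h1, of the same enzyme family, had -0.23 and -0.17, and Tll2, a tolloid-like protease gene, -0.10 and -0.36. Outside the naming rule, and chosen after its values were seen, Serpinh1, the collagen chaperone HSP47, had -0.21 and 0.0046. The median over 13 measured genes of collagen degradation was 0.0047, while their mean was -0.03, and 1 was above 0 on both arrays and 4 below. Those 4 were Mmp15 with -0.23 and -0.19, Mmp14 with -0.12 and -0.19, Mmp16 with -0.15 and -0.14, which encode membrane-bound metalloproteinases, and the inhibitor gene Timp4 with -0.03 and -0.11.

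Of 6 measured collagen receptors, 1 was above 0 on both arrays and 3 below, with a median of 0.0025. Itga11, an integrin chain that binds fibrillar collagen, had 0.29 and 0.13. Lair1, an inhibitory collagen receptor of immune cells, had -0.17 and -0.08, Adgrg1, a receptor of type III collagen in the developing brain, -0.04 and -0.11, and Itga1 -0.0012 and -0.0028. Of 17 measured small leucine-rich proteoglycans and fibril partners, 6 were above 0 on both arrays and 2 below, with a median of 0.02. Bgn, the fibril-binding proteoglycan biglycan, had 0.38 and 0.18, Ogn, osteoglycin, 0.18 and 0.18, Tnxb, tenascin X, 0.07 and 0.26, and Fmod, fibromodulin, 0.08 and 0.21. Of 12 measured laminins and basement membrane partners, 3 were above 0 on both arrays and 4 below, with a median of -0.02. Nid2, which links laminin to type IV collagen, had -0.25 and -0.05, Lamb1 -0.13 and -0.07, and Agrn, agrin, 0.12 and 0.08. With loess the medians of degradation, receptors and proteoglycans were above 0 and the other two below, and with median centring all 5 were below. They were then -0.12 for biosynthesis, -0.13 for degradation, -0.02 for receptors, -0.03 for the proteoglycans and -0.13 for laminins, and with spike-in scaling all 5 were below -0.2. Relative to the median of all genes, the proteoglycan list stayed above it and the laminin list below it under every setting, by 0.0044 to 0.08 and by -0.04 to -0.0051, while the other lists changed side.

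Markers of cells that make interstitial collagen also lay above 0 with loess scaling. In a list of meningeal fibroblast genes without collagens, 14 of 16 were measured, 8 were above 0 on both arrays (57.1%, against 14.3% of genes with a symbol) and 0 below (against 26.3%), and none was past 1.2-fold on each array. The median was 0.15, with 0.17 on array 1 and 0.09 on array 2; it was -0.04 with median centring and -0.24 with spike-in scaling, and between 0.06 and 0.17 above the median of all genes under every setting. Gjb2 had 0.32 and 0.22, Aldh1a2 0.40 and 0.10, Slc6a13 0.22 and 0.26 and Foxd1 0.16 and 0.24. Against these, Slc47a1 had -0.19 and 0.01, with a mean of -0.09. Foxc1, Tbx18, Islr, Igfbp2 and Ptgds also had the arrays on opposite sides of 0, with means from 0.02 (Foxc1) to 0.21 (Ptgds). The log2 of the summed intensities of the list was 17.13 for ASX and 16.62 for control on array 1, and 16.79 and 16.91 on array 2. Without its brightest gene Ptgds, which is also made by other brain cells, these log2 values were 14.84 and 14.71 on array 1, and 14.84 and 14.67 on array 2. Crabp2 and Bnc2 were not measured. Earlier results of these data had already shown a meningeal list to be higher, so this is no independent support. In the list of pericytes and smooth muscle, 6 of 10 were above 0 on both arrays and 1 below, with a median of 0.08 that became -0.10 with median centring and -0.30 with spike-in scaling, where it stood 0.0029 above the median of all genes. The log2 of its summed intensities was 15.08 for ASX and 14.93 for control on array 1, and 14.99 and 14.92 on array 2. Myh11 had 0.20 and 0.33, Pdgfrb 0.39 and 0.08, Tagln 0.13 and 0.26 and Vtn 0.11 and 0.10. Outside the naming rule, Kcnj8, the 1 below 0 on both arrays, had -0.20 and -0.01. Higd1b and Abcc9 had means of -0.04 and -0.02, and Acta2, Rgs5 and Anpep means of 0.09, 0.06 and 0.03. The part of these cells in the collagen ratios was not tested, and in such tissue RNA more cells of a type and more RNA per cell cannot be told apart.

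Endothelial markers had a median of -0.04 over 10 genes, with 0.01 on array 1 and -0.08 on array 2, and 1 was above 0 on both arrays and 2 below. Slco1a4 had 0.11 and 0.10, Pecam1 -0.10 and -0.06, and Kdr -0.01 and -0.12. For choroid plexus the median of 10 genes was -0.07, with 2 above 0 on both arrays and 6 below; Calml4 had -0.40 and -0.21, Otx2 -0.36 and -0.02, Aqp1 0.26 and 0.14, and Folr1 -0.21 and -0.06. Medians of neurons and glia were 0.04 for hippocampal neurons, -0.04 for astrocytes, -0.04 for oligodendrocytes, -0.10 for their precursors and -0.03 for microglia. The neuron median was -0.14 with median centring and -0.34 with spike-in scaling. On the single arrays, the neuron, astrocyte and oligodendrocyte medians lay on opposite sides of 0. Named by the same rule were Zbtb20 (0.09 and 0.46), Tdo2 (0.09 and 0.16) and Calb1 (0.02 and 0.07) of neurons, and Slc1a2 (0.26 and 0.19) of astrocytes. Among precursors these were Cspg4 (-0.27 and -0.26), Gpr17 (-0.31 and -0.19) and Olig1 (-0.09 and -0.01). Microglia gave Tmem119 (-0.16 and -0.17), P2ry12 (-0.10 and -0.15) and Aif1 (-0.02 and -0.05). Cspg4, which pericytes also express, was the 1 gene of these lists past 1.2-fold on each array.

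**Figure D5:**
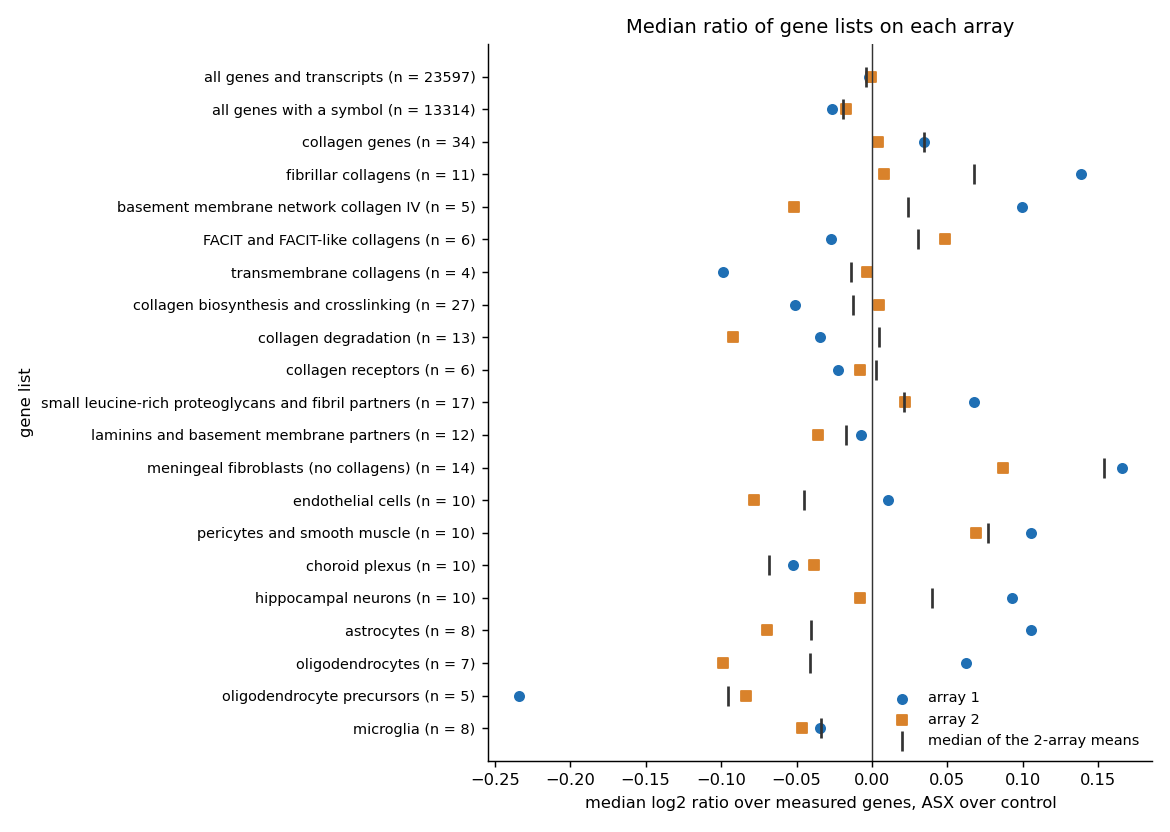
Median log2 ratio of ASX over control (horizontal axis) over the measured genes of each list (vertical axis), on array 1 (circles) and array 2 (squares), with the median of the 2-array means (ticks). The meningeal list is highest at 0.15 and pericytes and smooth muscle follow at 0.08, both above 0 on each array with loess scaling but below 0 in the mean with median centring or spike-in scaling; the family as a whole stands at 0.0345.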

How the data were processed

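Spots had been quantified by Agilent Feature Extraction 11.0.1.1, per the submitters' processing notes. The deposited intensities were the median pixel intensity of each spot and of its local background per channel, not normalised. The deposited value table of the series held log10 ratios of Cy5 over Cy3, with medians of 0.0050 and 0.0083, within 5e-08 of the processed signals and not turned for the dye swap.

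In limma 3.58.1 (R 4.3.3), background correction used normexp (offset 50), and loess normalisation within arrays gave controls weight 0. Controls (1639 of 45018 spots) and 3 outlier spots were left out, and spots of a probe were averaged, giving 41171 probes. Intensities given per RNA were also quantile-normalised between arrays on the average signal (Aquantile). Ratios were turned to ASX over control. Accessions were named through RefSeq (GRCm38.p6), which matched 23372 probes; 30071 probes (73.0%) passed the brightness filter. Array coordinates are not given, since the design used another build.

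With 1 replicate, counts past 1.2-fold and 1.5-fold on each array stand in for a test. The steps were tested on simulated data. Members and lists were chosen with earlier results of these data known. Full values are given for the 3 highest and 3 lowest means and for Col1a1, Col1a2, Col3a1, Col4a1, Col4a2 and Col25a1, and would have been for members past 1.2-fold; up to 4 genes per list are named, those of largest mean ratio on 1 side of 0. Some genes that this rule names are not reported here. Alternatives were another offset, no background subtraction, median centring, spike-in scaling, the scanner's log10 ratios, other brightness filters, the mean over probes and each array alone.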

Additional observations from a re-analysis of the deposited data

How the results depend on the processing

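The family median of 0.0345 stayed above 0 with an offset of 16, without background subtraction, with the scanner's log ratios, without or with a weaker brightness filter and with the mean over probes. It was -0.0455 with median centring and -0.24 with spike-in scaling. On single arrays, where a dye effect does not cancel, it ran from 0.0042 to 0.0345. Members above 0 on both arrays, 10, numbered 1 with spike-in scaling, where 2.12% of all genes were above. On single arrays 18 to 20 were above, where 49.5% to 49.8% of all genes were. Members below, 6, numbered 13 with median centring and 22 with spike-in scaling, where 48.2% and 69.8% of all genes were below. On single arrays 14 to 16 were below, where 50.2% to 50.5% of all genes were. Past 1.2-fold and lower, spike-in scaling gave 2 (Col4a2 and Col6a1) and single arrays 1 each. Past 1.2-fold and higher, single arrays gave 1 (Col11a1 on array 1) to 4 (Col1a1, Col3a1, Col7a1 and Col14a1 on array 2). The shares of all genes past 1.2-fold in these settings were not worked out, so these counts show no trait of the members. A single array also needs no agreement between arrays. With spike-in scaling the median of all genes was -0.30, and relative to it, taken on each array, 0 members were past 1.2-fold lower. The mean ratio changed sign in 11 of 34 members with median centring and in 20 with spike-in scaling; the cause was not tested. Ratios relative to the median of all genes were added after the data were examined. Of the 34 probes, 22 had less signal than the median over all genes. The other brightness filters left the ratios of the 34 genes unchanged, since weaker filters added only dimmer probes. They therefore do not show how dim signal affects these ratios. No paired analysis was possible because the arrays form 1 replicate.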
